A study of Mus musculus with 12 samples.

Results

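Mouse embryonic hearts that lost *Hira* in the cardiogenic mesoderm were followed over 1 day, from E11.5 to E12.5, by RNA-seq. The members are the 6 libraries that GEO's labels give as mutants, 3 at E11.5 and 3 at E12.5, out of 12 libraries in the series. They were picked out by these labels and not by measured values. The mutant hearts are *Mesp1Cre*;*Hira*-/fl on a CD1 background. They carry 1 constitutive null allele of *Hira* and 1 floxed allele, which Cre recombines in the *Mesp1* lineage, so cells outside that lineage keep the floxed allele. The control hearts at the same stages, also 3 and 3, are *Mesp1Cre*;*Hira*+/fl and share the Cre driver and the floxed allele. Each library is total RNA of embryonic heart, and the labels do not say how many hearts went into a library. Because the E11.5 and E12.5 hearts are different embryos, and the labels name no extraction or sequencing batch, stage and batch cannot be told apart. The labels also do not say whether replicates came from separate litters, so p-values measure the spread between these libraries.

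HIRA is a histone chaperone that deposits the histone variant H3.3 outside DNA replication, at active genes and regulatory regions. At these stages the heart is being septated, its muscle is maturing, the epicardium is spreading over its surface and supplying mesenchyme, and matrix is being laid down. Blood fills the chambers. The circulating red cells of this age are mostly primitive erythrocytes from the yolk sac, which mature together in the bloodstream, shut down their nuclear transcription and carry embryonic globins, while definitive red cells from the liver begin to join them.

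Recovered counts gave 11994148 to 16778895 reads per mutant library. *Hira*, the targeted gene, stood at 74.5, 56.7 and 63.6 CPM (reads scaled to library size by edgeR's cpm function, with TMM factors over all 12 libraries) at E11.5 and at 80.5, 71.6 and 71.0 CPM at E12.5 in the mutants. The stages overlapped, and the change was 0.19 on the log2 scale (SE 0.13), with an adjusted p of 0.703 by the quasi-likelihood test of edgeR. Counts cover the whole gene and cannot show the loss of a floxed exon, so they do not check the genotype. Cardiomyocyte markers were abundant in the 6 libraries: the 23 genes of the cardiac sarcomere list summed to 35644 to 46836 CPM. E11.5 Mutant replicate 3 stood apart. It had the lowest depth, and its median Spearman correlation across genes with the other 5 mutant libraries was 0.971, against 0.987 to 0.989 for each of the others. It was 1 of 2 mutant libraries called male by Y-linked reads, the other being E12.5 Mutant replicate 1. Results are therefore given with and without it where it matters.

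Which genes changed over the day was asked by testing E12.5 against E11.5 mutant libraries alone. The falls included 7 of 13 tested red blood cell genes and the embryonic globins *Hbb-bh1* and *Hba-x*, and the rises included 5 of 21 matrix genes and 5 of 14 macrophage genes. Of 12238 genes tested, 68 changed (0.556%), counting as changed a gene whose p after Benjamini-Hochberg adjustment did not exceed 0.05 and that moved 1.5-fold or more. Of these, 36 rose (0.294%) and 32 fell (0.261%). In all 68 the 3 libraries of one stage lay above the 3 of the other, which held for 1153 of all genes with E12.5 above (9.42%) and for 976 with E11.5 above (7.98%). At an unadjusted p under 0.05 there were 1134 genes (9.27%), 658 higher and 476 lower at E12.5. Without E11.5 Mutant replicate 3 the count of changed genes was 123, including 67 of the 68. The count depended more on the E12.5 libraries. It was 11, 1 and 10 when E12.5 Mutant replicate 1, 2 or 3 was left out, in that order. Of the 68 genes, 28 were called in at least 3 of the 6 fits with 1 library left out. The 1 gene called in all 6 fits was *Hbb-bh1*. All 68 kept their sign in these fits, but the separation of their libraries fixes this in advance, so it adds no support.

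**Figure D1:**
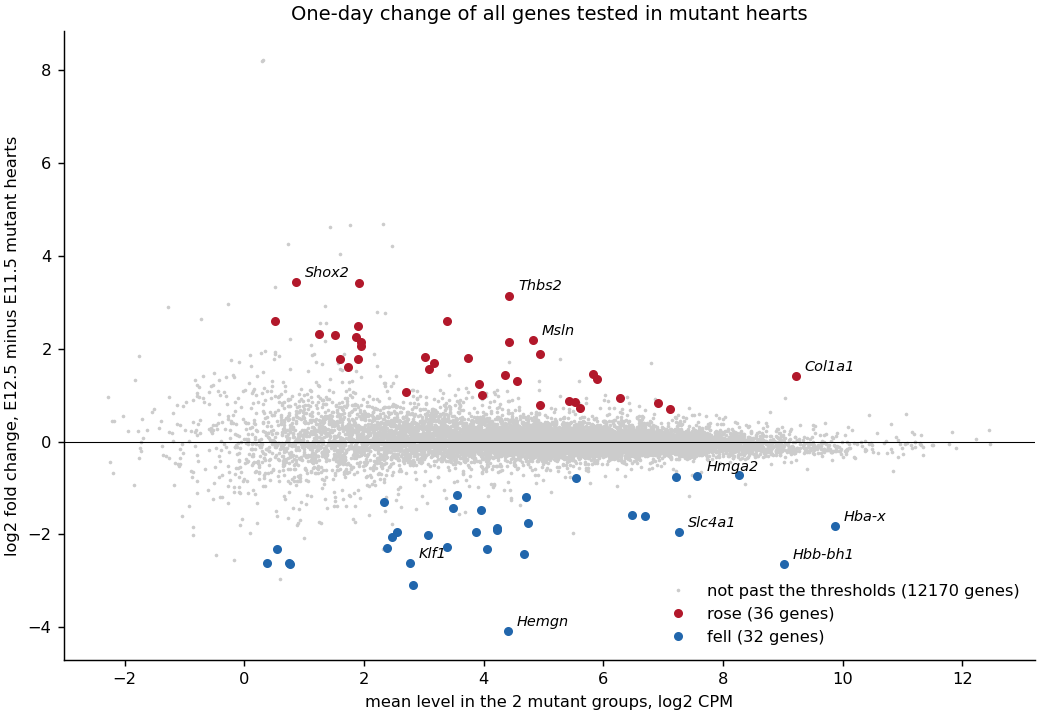
Log2 fold change from E11.5 to E12.5 in mutant hearts against the mean level in log2 CPM, 1 point per gene tested (n = 3 libraries per stage). The 36 genes that rose are red and the 32 that fell are blue. The abundant genes that fell are the embryonic globins *Hbb-bh1* and *Hba-x*, and *Col1a1* is the most abundant gene that rose.

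Of the 32 genes that fell, 9 were in the red blood cell and globin lists. The embryonic globin *Hbb-bh1*, on chromosome 7 (mm10, 103841636 to 103843164), was at 884, 1053 and 738 CPM at E11.5 and at 149, 111 and 173 CPM at E12.5. All E12.5 values lay far under the lowest E11.5 value. The gene fell by 2.64 on the log2 scale (SE 0.20, adjusted p = 0.00375, edgeR), which is 6.21-fold. *Hba-x*, the embryonic alpha-like globin on chromosome 11, went from 1547, 1612 and 1216 CPM to 473, 389 and 385 CPM, again with no overlap, and fell by 1.82 (SE 0.15, adjusted p = 0.00389, edgeR). The most abundant globin, embryonic *Hbb-y*, measured 2433, 2274 and 2026 CPM at E11.5 and 1696, 1353 and 1293 CPM at E12.5. Its libraries did not overlap either, yet its log2 fold change of -0.64 missed the threshold (adjusted p = 0.128, edgeR), and without E11.5 Mutant replicate 3 it was -0.70 (adjusted p = 0.0310, edgeR). In whole hearts, fewer cells of a type and less RNA per cell cannot be told apart.

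**Figure D2:**
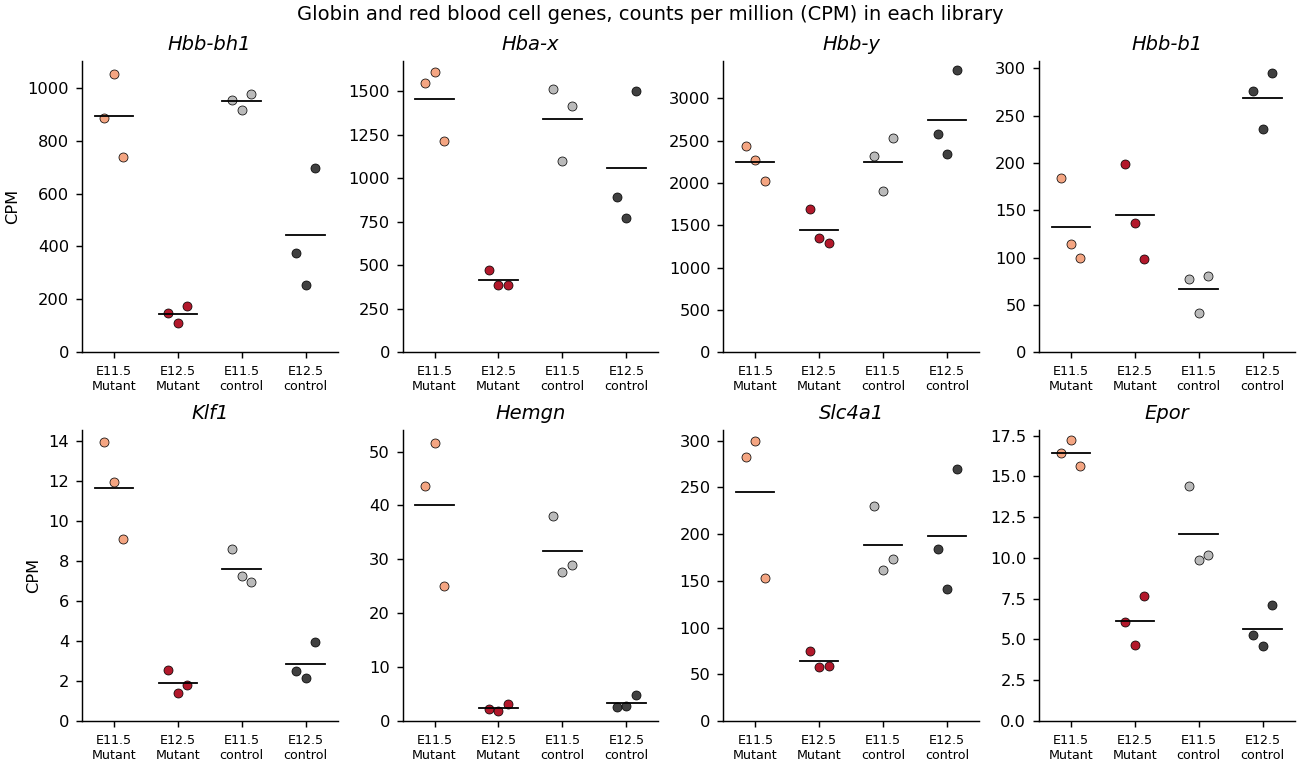
CPM of 4 globin genes and 4 red blood cell genes in each of the 12 libraries, with a line at the mean of each group (n = 3). The 3 E12.5 Mutant libraries lie below the 3 E11.5 Mutant libraries in every panel except that of the adult globin *Hbb-b1*, where they overlap.

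The adult globins did not move in this way. *Hbb-b1* was at 184, 114 and 99.4 CPM at E11.5 and at 199, 137 and 98.8 CPM at E12.5 in mutants (a change of 0.12 on the log2 scale, SE 0.28, adjusted p = 0.905, edgeR), a sign that reversed without E11.5 Mutant replicate 3 or E12.5 Mutant replicate 1. In controls it went from 77.4, 41.2 and 81.0 CPM to 276, 236 and 295 CPM. *Hbb-b2* in mutants was at 83.5, 98.7 and 45.9 CPM and then at 83.1, 61.9 and 42.8 CPM, so the stages overlapped. *Hba-a1* overlapped as well, at 253, 224 and 245 CPM before and at 228, 165 and 167 CPM after. The difference between the mutant and the control one-day change was -1.89 for *Hbb-b1* (unadjusted p = 0.000496), -1.45 for *Hbb-b2* (unadjusted p = 0.00166) and -1.03 for *Hba-a1* (unadjusted p = 0.000375) by edgeR, and none of these passed the adjustment over all genes (lowest adjusted p of the 3 0.286). The adult alpha genes *Hba-a1* and *Hba-a2*, and the adult beta genes, are near-identical pairs whose reads may have been split by the authors' counting. *Hba-a2* was uneven, at 89.3, 73.4 and 3.20 CPM in the 3 E11.5 mutant libraries, so single values of these 4 genes are uncertain. Whether split reads account for this was not tested.

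Of the 14 genes in the red blood cell list, 13 had counts and all 13 were tested. Log2 fold changes were negative for 13 of 13, 7 fell by the test, and in 12 the E11.5 libraries all lay above the E12.5 libraries. The median log2 fold change was -1.94, beside -0.0061 over all genes tested. Without E11.5 Mutant replicate 3 the median was -2.19 and 10 fell. With other libraries left out, 4 and 5 fell (E11.5 Mutant replicates 1 and 2) or 2, 0 and 1 fell (E12.5 Mutant replicates 1, 2 and 3), while the median stayed at or below -1.75. The summed level of the list was 1006, 1106 and 628 CPM at E11.5 and ranged from 327 to 442 CPM at E12.5, so the third E11.5 library was the lowest of its stage and still above all E12.5 libraries.

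Among the regulators, *Klf1*, the erythroid Krüppel-like factor that drives globin and membrane genes, was at 13.9, 12.0 and 9.08 CPM at E11.5 and at 2.57, 1.41 and 1.78 CPM at E12.5. All E12.5 values were under all E11.5 values, and the gene fell by 2.62 (SE 0.28, adjusted p = 0.00866, edgeR). *Hemgn*, encoding the nuclear protein hemogen of erythroid cells, had the largest fall of any changed gene, from 43.5, 51.6 and 25.1 CPM to 2.23, 1.76 and 3.17 CPM. It fell by 4.08 on the log2 scale (SE 0.32, adjusted p = 0.00375, edgeR), 16.9-fold. The erythropoietin receptor *Epor* went from 16.4, 17.2 and 15.7 CPM to 6.08, 4.65 and 7.66 CPM and fell by 1.43 (adjusted p = 0.0220, edgeR). *Gfi1b* (-1.73) and *Nfe2* (-1.46), further erythroid transcription factors, had E11.5 libraries above E12.5 libraries and missed the threshold, each with an adjusted p of 0.0988 (edgeR). *Ikzf1*, encoding the blood transcription factor Ikaros, fell by 2.05.

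Membrane proteins of the red cell made up another group. *Slc4a1*, the anion exchanger known as band 3, was at 282, 300 and 153 CPM at E11.5 and at 75.1, 57.6 and 58.3 CPM at E12.5. The lowest E11.5 value was above the highest E12.5 value, and the gene fell by 1.95 (SE 0.24, adjusted p = 0.0147, edgeR). *Epb4.2*, which ties band 3 to the membrane skeleton, fell by 1.94, and *Rhag* and *Rhd* of the Rh complex by 2.27 and 2.32. The blood group genes *Kel* and *Ermap* fell by 1.74 and 1.90, and *Icam4*, another blood group antigen, by 2.63. *Ank1*, the ankyrin of the red cell membrane skeleton, was at -1.09 (adjusted p = 0.0906, edgeR).

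Other genes that fell were in neither list. *Pklr*, the pyruvate kinase of red cells and liver, went from 12.8, 15.8 and 9.34 CPM to 1.35, 1.24 and 1.91 CPM and fell by 3.09 (SE 0.28, adjusted p = 0.00594, edgeR). *Slc25a37*, the mitochondrial iron importer mitoferrin, fell by 1.61, from 199, 158 and 111 CPM to 54.8, 50.3 and 49.1 CPM. *Car2*, a carbonic anhydrase, fell by 1.58. *Kcnn4*, a calcium-activated potassium channel of red cells, fell by 1.30 and *Mfsd2b*, a sphingosine-1-phosphate exporter, by 1.14. *Tspan33*, *Acp5*, *Slc30a10*, *Adra2b*, *Rnf212*, *Mst1*, *6030468B19Rik* and *1300017J02Rik* fell by 1.48 to 2.63. These genes were named after their values were seen. The transferrin receptor *Tfrc*, used by all dividing cells, was at 282, 334 and 235 CPM and then at 215, 176 and 235 CPM (a log2 difference of -0.45, adjusted p = 0.393, edgeR), and was not among the genes that fell.

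*Gata1*, the master regulator of red cell genes, and *Alas2*, the first enzyme of heme synthesis in red cells, lie on chromosome X, which the authors' comparisons leave out. A further fit added 436 genes from outside those comparisons to the test. There *Gata1* went from 11.3, 10.9 and 7.70 CPM to 1.96, 0.647 and 1.98 CPM and fell by 2.73 (SE 0.38, adjusted p = 0.0226, edgeR). *Alas2* went from 145, 145 and 99.2 CPM to 70.7, 50.4 and 50.2 CPM and fell by 1.19 (SE 0.19, adjusted p = 0.0376, edgeR).

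Because GATA1 binds DNA at the letters GATAAG, promoters of the falling genes were searched for them on either strand, a choice made after the values were seen. RefSeq windows of 300 bases (250 before to 50 after the gene start, GRCm38.p6) were matched to 27 of the 32 falling genes (84.4%) and to 9759 of all 12238 tested genes (79.7%). The share over all genes is just under the 80% that a comparison needs, so the shares stand side by side as a description. GATAAG or its reverse complement CTTATC was in 12 of the 27 windows (44.4%) and in 5.01% of the 9759. The 12 genes were *Klf1*, *Epor*, *Epb4.2*, *Rhag*, *Rhd*, *Kel*, *Icam4*, *Pklr*, *Acp5*, *Slc30a10*, *6030468B19Rik* and *1300017J02Rik*. CCNCNCCC, the letters that KLF1 and related factors bind, was in 63.0% of the falling windows and in 70.3% of all. Of the letters listed in the design, GAGAGAGA, a repeat that the study links to HIRA-bound DNA, was in 4 of 27 falling windows (14.8%) and in 3.12% of all, CCAAT in 44.4% against 38.6%, TATAAA in 14.8% against 6.89%, TTTGAA in 11.1% against 11.4% and CACGTG in 7.41% against 10.1%. For the rising genes 24 of 36 had a window (66.7%), again under 80%, so that check is void. A match describes the letters only. Upstream sequence of 4 falling genes with the match is shown, a regulator, a metabolic enzyme and the pair of Rh complex genes, read 5′ to 3′ on the strand of the gene and ending before the gene model of the files. Capitals mark GATAAG or CTTATC and CCAAT or ATTGG. They are *Klf1* at chr8:84901732-84901927 (+ strand), *Rhag* at chr17:40810899-40811125 (+), *Rhd* at chr4:134864286-134864535 (+) and *Pklr* at chr3:89135892-89136141 (+).
Klf1: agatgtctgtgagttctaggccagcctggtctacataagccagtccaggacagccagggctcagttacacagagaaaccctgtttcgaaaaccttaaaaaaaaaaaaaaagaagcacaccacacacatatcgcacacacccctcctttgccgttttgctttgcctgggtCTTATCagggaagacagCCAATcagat
Rhag: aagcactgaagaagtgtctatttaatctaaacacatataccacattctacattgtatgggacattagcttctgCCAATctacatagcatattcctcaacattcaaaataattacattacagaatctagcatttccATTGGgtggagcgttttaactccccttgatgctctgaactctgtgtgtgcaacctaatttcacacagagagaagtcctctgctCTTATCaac
Rhd: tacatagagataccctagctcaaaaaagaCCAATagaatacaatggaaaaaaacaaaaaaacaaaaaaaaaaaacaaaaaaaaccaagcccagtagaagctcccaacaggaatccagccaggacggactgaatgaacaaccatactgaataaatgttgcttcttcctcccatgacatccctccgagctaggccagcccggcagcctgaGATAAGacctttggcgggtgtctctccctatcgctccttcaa
Pklr: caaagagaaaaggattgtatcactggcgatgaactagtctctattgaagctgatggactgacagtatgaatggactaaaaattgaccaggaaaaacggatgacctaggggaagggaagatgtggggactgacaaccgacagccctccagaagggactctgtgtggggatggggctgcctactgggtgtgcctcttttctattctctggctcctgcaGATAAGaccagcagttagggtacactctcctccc
Counted back from the RefSeq start, the GATA letters lie 76 to 81 bases upstream in *Klf1*, 27 to 32 in *Rhag*, 37 to 42 in *Rhd* and 29 to 34 in *Pklr*, and are on the opposite strand in *Klf1* and *Rhag*.

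Of the 21 genes in the list of collagens and extracellular matrix, all were tested, 5 rose, none fell, and in 13 the E12.5 libraries all lay above the E11.5 libraries. The median log2 fold change was 0.64, and 0.48 without E11.5 Mutant replicate 3, when 6 rose. The number of list genes that rose was 3 without E11.5 Mutant replicate 2, and 0, 0 and 1 without E12.5 Mutant replicate 1, 2 or 3. The median stayed between 0.48 and 0.73 with any 1 library left out. *Col1a1*, the main fibrillar collagen chain, was at 447, 283 and 242 CPM at E11.5 and at 1060, 785 and 754 CPM at E12.5. The lowest E12.5 value was above the highest E11.5 value, and the gene rose by 1.41 (SE 0.24, adjusted p = 0.0461, edgeR). Its partner *Col1a2* was at 549, 304 and 226 CPM and then at 784, 660 and 622 CPM, without overlap, but at 0.93 it missed the threshold (adjusted p = 0.304, edgeR). *Col14a1*, a fibril-associated collagen, rose by 1.30 (from 14.7, 12.2 and 13.7 CPM to 35.3, 35.9 and 29.6 CPM) and *Col6a3* by 1.44. The small leucine-rich proteoglycans *Ogn* and *Lum*, which regulate collagen fibrils, rose by 1.69 and 0.86. *Col3a1*, the most abundant collagen gene of the list, was at 0.56 (adjusted p = 0.253, edgeR).

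Further secreted and matrix genes outside the list rose too. *Thbs2*, thrombospondin-2, a matricellular protein, went from 6.55, 3.75 and 2.59 CPM to 41.1, 50.1 and 25.1 CPM. Its E12.5 values were all above its E11.5 values, with a rise of 3.14 (SE 0.35, adjusted p = 0.0107, edgeR), 8.84-fold. *Col6a6* rose by 2.59, from 3.57, 2.66 and 2.59 CPM to 15.3, 23.9 and 14.7 CPM (adjusted p = 0.00750, edgeR). *Aspn*, asporin, and *Smoc2*, a calcium-binding matricellular protein, each rose by 2.15. *Col15a1* and *Col16a1* rose by 1.56 and 0.94, *Spon2*, spondin-2, by 1.45, and *Megf6* by 0.88. *Hapln1*, the link protein that holds hyaluronan and proteoglycan together in the cushions, fell instead, by 0.73, from 364, 378 and 407 CPM to 250, 238 and 211 CPM (adjusted p = 0.0355, edgeR).

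The macrophage list has 17 genes, of which 14 passed the filter on low values and *Ptprc*, *Cd14* and *Itgam* did not. Of the 14, 5 rose, none fell, and in 11 the E12.5 libraries lay above the E11.5 libraries. The list summed to 55.2, 53.1 and 49.5 CPM at E11.5 and to 89.4 to 117 CPM at E12.5 in mutants, and to 94.7 to 189 CPM and 161 to 210 CPM in the controls. *C1qb*, a chain of the complement component C1q, was at 1.43, 1.03 and 1.30 CPM at E11.5 and at 7.03, 5.35 and 5.68 CPM at E12.5, and rose by 2.25 (SE 0.26, adjusted p = 0.0107, edgeR). The other chains *C1qa* and *C1qc* rose by 2.32 and 2.29. *Csf1r*, the receptor for the macrophage growth factor, went from 7.65, 5.56 and 4.5 CPM to 25.6, 20.1 and 16.4 CPM and rose by 1.79. *Mrc1*, the mannose receptor of resident macrophages, rose by 1.81, from 3.24, 5.02 and 2.42 CPM to 15.5, 13.8 and 8.98 CPM. Without E11.5 Mutant replicate 3 *Mrc1* was at 1.62 and just missed the threshold (adjusted p = 0.0506, edgeR). In controls it rose by 1.21 (adjusted p = 0.0392, edgeR). *Lyz2*, the most abundant gene of the list, was at 21.5, 25.0 and 17.6 CPM and then at 16.8, 23.6 and 14.3 CPM, so it overlapped between stages. *Cx3cr1* (1.57) and *Tyrobp* (1.21) had E12.5 libraries above E11.5 libraries and did not pass the test (adjusted p = 0.253 and 0.448, edgeR). With E11.5 Mutant replicate 1, 2 or 3 left out 3, 3 and 4 members rose, and with any 1 of the E12.5 libraries left out 0 rose by edgeR, against 11 members at an unadjusted p under 0.05 with all 6 libraries.

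In the muscle lists 1 of 23 cardiac sarcomere genes, 2 of 13 skeletal-type contractile genes and 1 of 14 calcium handling genes rose, and the abundant *Myh7* and *Tnnt2* overlapped between stages. *Myh7*, the main ventricular myosin of the embryo, was at 5060, 5647 and 4583 CPM at E11.5 and at 5459, 5522 and 7187 CPM at E12.5. *Tnnt2*, cardiac troponin T, was at 2920, 3072 and 4035 CPM and then at 3661, 3786 and 4254 CPM. The sarcomere gene that rose was *Myom2*, an M-band protein, which went from 1.04, 1.21 and 1.12 CPM to 5.68, 5.76 and 7.66 CPM (up by 2.48 on the log2 scale, SE 0.26, adjusted p = 0.00866, edgeR). Outside these lists, the muscle creatine kinase *Ckm* went from 8.50, 14.5 and 16.3 CPM to 61.4, 39.9 and 45.0 CPM and rose by 1.89. *Sln*, sarcolipin, the atrial inhibitor of the calcium pump, rose by 3.41, from 0.519, 0.846 and 0.519 CPM to 5.41, 5.06 and 10.3 CPM (SE 0.40, adjusted p = 0.0107, edgeR). It was the single riser of 14 genes of calcium handling, of which 4 had E12.5 libraries above E11.5 libraries. *Nrap*, also in none of these lists, which acts in myofibril assembly, rose by 0.84, from 91.6, 90.6 and 76.4 CPM to 150, 147 and 169 CPM. Of the 13 tested skeletal-type contractile genes 2 rose, *Mybpc2*, fast myosin-binding protein C, by 1.77 and *Myh7b*, a slow-type myosin, by 0.70. *Shox2*, a transcription factor of the sinoatrial region, had the largest rise of any changed gene at 3.43, from 0.324, 0.242 and 0.346 CPM to 1.62, 4.18 and 4.16 CPM (SE 0.50, adjusted p = 0.0252, edgeR), on 4 or 5 reads per E11.5 library.

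**Figure D3:**
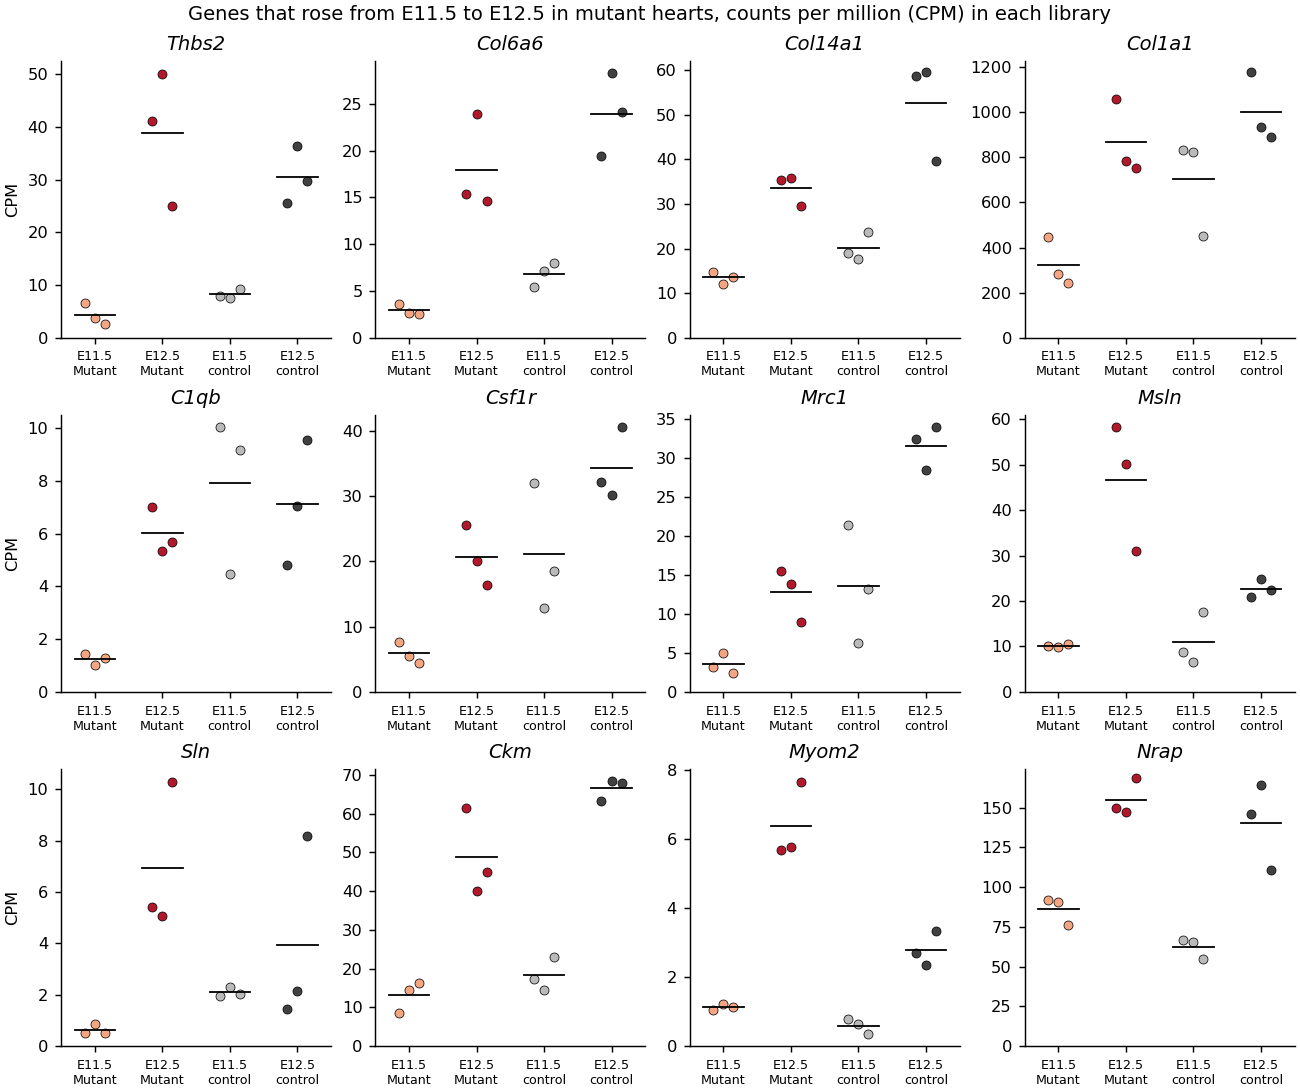
CPM of 12 genes that rose in mutants, matrix genes in the first row, macrophage genes and the mesothelial *Msln* in the second and muscle genes in the third, in each of the 12 libraries with a line at the mean (n = 3). In each panel the 3 E12.5 Mutant points lie above the 3 E11.5 Mutant points.

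In the epicardial list, 14 genes were tested, of which 1 rose and 1 fell. *Msln*, mesothelin, a surface protein of mesothelium, went from 10.1, 9.97 and 10.5 CPM to 58.3, 50.2 and 31.0 CPM and rose by 2.18 (SE 0.22, adjusted p = 0.00866, edgeR). *Aldh1a1*, a retinaldehyde dehydrogenase, went from 38.9, 43.3 and 27.2 CPM to 14.5, 16.2 and 17.4 CPM and fell by 1.20 (adjusted p = 0.0275, edgeR). *Hmga2*, a chromatin protein of proliferating embryonic tissue and a target of let-7 microRNAs, was the 1 of 8 tested genes of the LIN28 and let-7 axis that fell, by 0.75, from 252, 219 and 243 CPM to 145, 142 and 141 CPM (SE 0.10, adjusted p = 0.0213, edgeR). The log2 fold changes of the 8 were all negative, and all 8 were negative in controls too. In 7 the E11.5 mutant libraries lay above the E12.5 mutant libraries, beside 7.98% of all genes tested. Of the 8, *Lin28b* was at -0.43, *Igf2bp3* at -0.30 and *Igf2bp1* at -0.27, with adjusted p-values of 0.379 to 0.519 (edgeR). Of 34 cell cycle genes 0 changed by edgeR and 1 by DESeq2, and 5 had an unadjusted p under 0.05, beside 9.27% of all genes tested. A negative log2 fold change was seen in 32, with a median of -0.15, beside -0.0061 over all genes tested. In controls 24 were negative, with a median of -0.10. Of the 34, the E11.5 mutant libraries all lay above the E12.5 mutant libraries in 11, beside 7.98% of all genes tested. The reverse held in 1, beside 9.42%. *Mki67*, a marker of cycling cells, was at 381, 427 and 288 CPM and then at 332, 307 and 367 CPM. Of 11 genes of the HIRA complex, H3.3 and other H3 chaperones, 0 changed by edgeR or DESeq2 and 1 had an unadjusted p under 0.05. The remaining changed genes were *Ptger4*, the prostaglandin receptor EP4, which rose by 2.06, *Ptgds*, *Trpm5*, *Cldn15*, *Mlf1*, *Cfi*, *Dok7*, *Sema5a*, *Tle2* and *Rnf207*, which rose by 0.71 to 2.61, and *Slc39a8* and *Gpx1*, which fell by 0.78 and 0.76.

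Whether the mutant day differs from the control day was tested as the mutant change minus the control change over all 12 libraries. No gene passed at an adjusted p of 0.05 (0 of 12270, edgeR, lowest adjusted p 0.147), 551 had an unadjusted p under 0.05 (4.49%), and DESeq2 called 43. Controls alone gave 647 changed genes of 12252 (5.28%). The spread between libraries of a group, edgeR's coefficient of biological variation, was 0.159 in the mutant fit and 0.128 in the control fit. It was 0.111 in mutants without E11.5 Mutant replicate 3. Counts from fits of unlike spread do not compare the size of the change. Of the 68 genes changed in mutants, 66 were tested in controls, 59 had the same sign there, and 32 were changed there in the same direction. Mutant and control changes correlated across all 12048 genes in both fits (Pearson 0.547). The share of same signs over all genes was not counted, so the 59 of 66 have no background to stand beside. Of the 68, 35 had an unadjusted p under 0.05 for the difference (edgeR), but the mutant values that picked them enter that test too. By Y-linked reads the 3 E11.5 control libraries were called male, and the E12.5 control libraries 2 female and 1 male. Sex as called therefore moves with stage in the controls. With sex as a covariate, 0 genes passed.

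**Figure D4:**
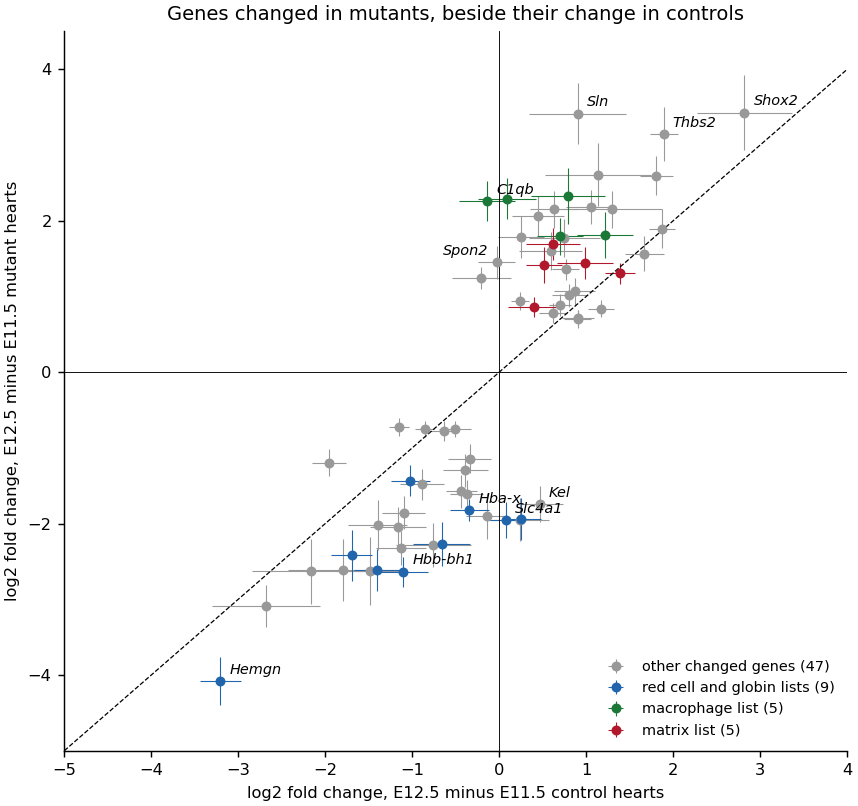
Log2 fold change from E11.5 to E12.5 of 66 genes changed in mutants, mutant hearts on the vertical and control hearts on the horizontal axis, with SE bars (n = 3 libraries per group), coloured by gene list. The dashed line marks equal change. *Slc4a1* sits at 0.08 in controls and at -1.95 in mutants, *C1qb* at -0.14 and 2.25, and *Spon2* at -0.03 and 1.45.

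The gene with the lowest p was *Msr1*, the macrophage scavenger receptor, too low to pass the filter on mutant libraries alone. It was at 0.324, 0.423 and 0.519 CPM in E11.5 mutants, 2.16, 2.59 and 2.97 CPM in E12.5 mutants and between 3.48 and 5.39 CPM in the 6 controls. Its change was 2.69 larger in mutants (SE 0.40, unadjusted p = 1.2e-05, adjusted p = 0.147, edgeR). *Slc4a1* and *Epb4.2* came next, with differences of -2.02 and -2.19 (adjusted p = 0.230 for both, edgeR). In controls *Slc4a1* was at 230, 162 and 173 CPM at E11.5 and at 184, 141 and 270 CPM at E12.5, overlapping, while in mutants it fell. *Asb4*, encoding an ankyrin-repeat protein, and *Col8a2*, a short-chain collagen, followed with differences of 0.77 and 1.46 (adjusted p = 0.230 for both, edgeR). *Col8a2* was at 11.2, 11.4 and 8.99 CPM and then at 10.7, 12.9 and 15.6 CPM in mutants, and at 26.9, 18.7 and 21.9 CPM and then at 7.82, 10.9 and 11.5 CPM in controls.

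By list, an unadjusted p under 0.05 for the difference was reached by 9 of 13 red blood cell genes, 6 of 7 globins, 11 of 14 epicardial genes, 5 of 21 matrix genes and 4 of 14 macrophage genes, beside 4.49% over all genes. The median log2 fold change of the red blood cell list was -1.94 in mutants and -0.37 in controls, and that of the epicardial list -0.03 and -0.71. *Krt8*, a keratin of mesothelium, illustrates the latter. It was at 69.3, 66.0 and 65.8 CPM and then at 44.2, 45.2 and 57.1 CPM in mutants (a log2 difference of -0.47, adjusted p = 0.239, edgeR), and at 62.2, 45.8 and 55.0 CPM and then at 18.0, 13.5 and 21.2 CPM in controls, where it fell by 1.63. *Aldh1a2*, the epicardial enzyme of retinoic acid synthesis, was at 62.2, 65.4 and 35.2 CPM and then at 82.2, 92.6 and 72.0 CPM in mutants, and at 96.9, 112 and 133 CPM and then at 57.5, 63.4 and 98.0 CPM in controls. *C1qb* in controls was at 10, 4.49 and 9.17 CPM and then at 4.80, 7.07 and 9.56 CPM, so the E11.5 mutant libraries were the low ones. Without E11.5 Mutant replicate 3, 10 genes passed the test of the difference at an adjusted p of 0.05 (edgeR). They included *Slc4a1*, *Epb4.2*, *Ank1*, *Kel*, *Fech*, which encodes the last enzyme of heme synthesis, *Fam46c*, *Reln* and *Ccdc88c* with negative differences, and *Msr1* with a positive one, named after their values were seen. The difference for *Slc4a1* was then -2.25 (SE 0.30, adjusted p = 0.0312, edgeR).

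Fold changes followed gene length in these libraries. Over 5 equal bins of length, the median log2 fold change from E11.5 to E12.5 in mutants rose from -0.13 in the shortest (292 to 1608 bases) to 0.11 in the longest (4760 bases and more). The share of genes with a positive value rose from 26.5% to 74.4%. Spearman's correlation of length with fold change across the 12238 genes, which are not independent replicates, was 0.345. Without E11.5 Mutant replicate 3 it was -0.0443, and the medians of the shortest and longest bins were 0.03 and 0.01. Of the mutant libraries, that one alone had short genes high and long genes low. Short genes moved with it as groups: the 79 tested ribosomal protein genes had a median of -0.21, and 0.05 without it, and the 21 genes of oxidative phosphorylation -0.14 and 0.01, with 0 changed in each list by edgeR (1 and 0 genes at an unadjusted p under 0.05). Without that library 0 ribosomal protein genes changed and 1 oxidative phosphorylation gene rose, with or without the length correction. Rises and falls among the 68 were in every bin, 8 and 8 in the shortest and 12 and 3 in the longest. In controls the trend was 0.485, and the medians of the shortest and longest bins were -0.26 and 0.22. The control median was -0.52 for the ribosomal protein genes and -0.11 for the oxidative phosphorylation genes.

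**Figure D5:**
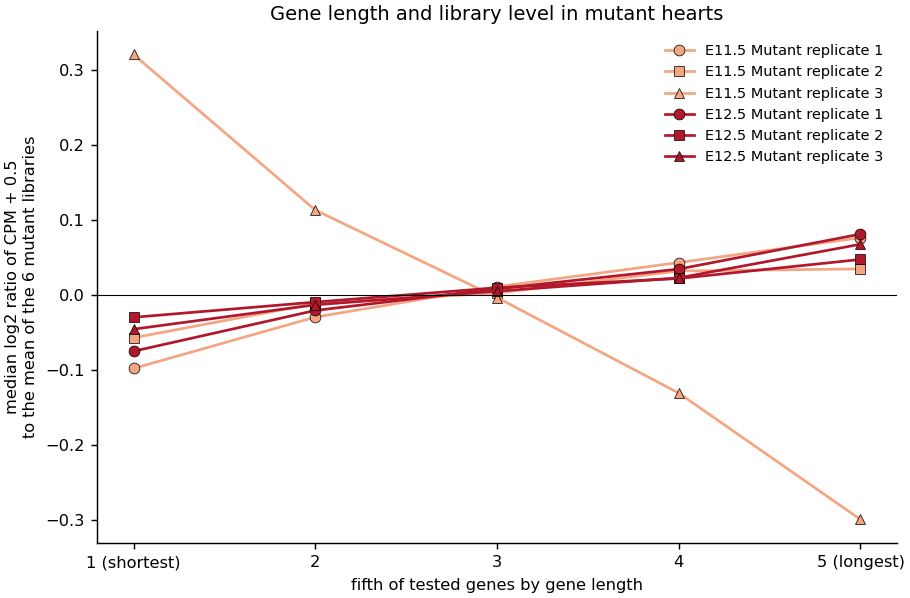
Median log2 ratio of each mutant library to the mean of the 6, in 5 bins of tested genes by length, 1 line per library. E11.5 Mutant replicate 3 goes from above 0.3 in the shortest genes to about -0.3 in the longest, and the other 5 libraries slope gently the other way.

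With a correction for length in each library, 95 genes changed, including 64 of the 68. The red blood cell list then had 9 genes that fell (median -1.95), the macrophage list 5 that rose (median 1.65) and the matrix list 6 (median 0.54). Markers of other tissues were checked for carry-over. The liver list summed to 29.8 to 88.6 CPM at E11.5 and to 22.6 to 94.7 CPM at E12.5, overlapping, and *Alb*, the liver's albumin, was at 0.454, 0.181 and 0.0865 CPM and then at 18.7, 0.353 and 0.726 CPM, high in E12.5 Mutant replicate 1 alone. The lung and foregut list was at 2.24 to 18.6 CPM and at 2.18 to 19.7 CPM. Their part in the results above was not tested.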

How the data were processed

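RNA-seq of hearts was measured in 12 libraries, of which the 6 mutant libraries are the subject and the 6 control libraries serve one test. Reads were aligned by the authors with Bowtie2 to mm10 and normalised with DESeq, per the labels. The counting program, annotation and use of strand are not given in the sources used here. The authors deposited a table of values named RPKM, treated here as a score because each value is a whole count multiplied, not divided, by gene length and a library factor. The authors' comparison tables hold average counts per group, values of the expected count kind, whole for 100% of genes after multiplying by 3. Their fold changes, z scores and p-values compare genotypes and were not used.

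Library factors were fitted on 9993 genes so that recovered counts had the deposited averages, which gave whole counts (within 1e-06) for 17827 genes. On simulated data, 3973 of 3973 genes were recovered. For 494 of 944 genes outside the comparison tables, counts came from the common divisor of their values. Genes without a symbol, 64 in number, held 0.293% of counts. Genes with a mean RPKM, computed from recovered counts and lengths, of at least 0.5 were tested with edgeR 4.0.16 (R 4.3.3, quasi-likelihood, TMM). SE was taken from the F statistic. With 3 libraries a stage, exact permutation reaches a two-sided p of 0.1 at best and was not used. On simulated counts for the mutant comparison (12217 genes), 76 of 100 genes changed by 1 on the log2 scale were called and 100 of 100 changed by 2, with 9 false calls. The simulated counts held no library that stood apart and no length trend, so they can overstate what the real test detects. Depth limits low genes, and counting error is only part of the spread. Libraries with at least 100 reads on 4 Y-linked genes were called male. A library pooled from several hearts would be called so with any male among them. Same-numbered libraries of the stages did not deviate together, with correlations of 0.0757, -0.0398 and 0.0053.

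Named genes were the 12 largest rises and falls among changed genes with stages apart and a mean RPKM of at least 1, the 5 lowest p-values of the difference, and list members. The other changed genes in the text were named after their values were seen, and a few list members are not reported here. The labels alone decide which libraries are mutant, but the choice of this comparison, its members and the lists was made with earlier results of these data known. Alternatives were filters, scaling, DESeq2 1.42.0, limma 3.58.1, gene length, sex, added genes, replicate block and left-out libraries. The voom weights, the red cell genes left out, and the length correction together with a left-out library were chosen after seeing the data.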

Additional observations from a re-analysis of the deposited data

Results flagged for a closer look

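Genes outside the authors' comparison tables were not in the main test. Of 436 that could be tested in mutants, 4 changed from E11.5 to E12.5, which puts them here as signal in data the main comparison does not use. *Gata1* had a log2 fold change of -2.73 and *Alas2* of -1.19, with the values given above. *Asb11*, encoding an ankyrin-repeat protein of muscle, went from 0.649, 0.725 and 1.30 CPM to 3.45, 4.94 and 3.70 CPM in mutants, a log2 fold change of 2.20 (adjusted p = 0.0366, edgeR), and was at 0.769 to 1.5 CPM and then at 2.23 to 3.87 CPM in controls. *Sept6*, a septin gene, went from 70.0, 73.9 and 78.7 CPM to 135, 136 and 111 CPM, a log2 fold change of 0.77 (adjusted p = 0.0308, edgeR), and was at 68.2 to 88.5 CPM and then at 130 to 161 CPM in controls. In controls *Gata1* was at 4.83 to 7.89 CPM and then at 1.29 to 3.45 CPM, lower at E12.5 as in mutants, and *Alas2* at 87.1 to 102 CPM and then at 113 to 197 CPM, higher at E12.5. The difference between mutants and controls was tested for these genes with the rest, and no gene passed.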

How the results depend on the processing

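The count of 68 changed genes was within 1.5 times under median-ratio scaling, limma at 3 pseudocounts, sex as a covariate, the length correction, added genes, no fold threshold and without red cell genes (53 to 95). It was 119 without a filter on low counts, 29 at a mean RPKM of at least 5, 227 with DESeq2, 23 when tested against a fold change of 1.5, 119 with all 12 libraries in one fit, 215 with voom quality weights and 109 without the third E11.5 mutant library and with the length correction. Leaving out 1 library gave 1 to 123. With the replicate number as a block it was 36, 32 of them among the 68. The numbers do not pair the libraries, so this is not a weaker effect, and the block left the test of the difference at 0. The difference count was 43 with DESeq2, 0 to 10 with 1 library left out, 19 without the third E11.5 mutant library and with the length correction, and 0 otherwise. The length trend ran from -0.0443 to 0.450 with 1 library left out. The sign of *Hbb-b1* reversed to -0.04 without E11.5 Mutant replicate 3, to -0.18 without E12.5 Mutant replicate 1 and to -0.092 with the third E11.5 library out and the length correction (0.43 at most with 1 library left out). That of *Hba-a2* reversed to 0.22 without E11.5 Mutant replicate 1 and to 0.24 without E12.5 Mutant replicate 3 (-1.05 at the lowest). Neither gene was called. The cause of these shifts was not tested, apart from fewer libraries or genes in the fit. Depth limits genes of a few reads, such as *Shox2*.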
